A study of Mus musculus with 6 samples.

Results

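Autophagy genes were examined in 3T3-L1 cells, a clonal mouse line of fibroblast type whose cells become lipid-filled adipocytes under an adipogenic hormone mixture. The set held 38 genes of the 21154 that the array represents under a single symbol. Trp53inp2 entered the set because its signal was higher with the extract, so its difference between the groups is given as a description with no test. The other 37 were chosen by function, with earlier results of these data known. Each gene was found by its exact symbol and represented by its brightest transcript cluster, the array's gene-level probe set, and each of the 38 had 1 cluster. The study exposed the cells to an extract of Tsuruazuki, a Japanese name for the rice bean, which the labels shorten to Tsuru.

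There were 3 arrays of Tsuru-treated cells (Tsuru replicates 1 to 3) and 3 of cells without extract (Medium replicates 1 to 3), all collected at day 9. Both groups were of the same line, and the labels name no genetic change. The treatment protocol has both pass through an induction medium with IBMX, insulin and dexamethasone and then an insulin medium, whereas the titles of the untreated samples say only that cells were maintained in medium. More than 1 dilution of the extract is named, and the labels do not say which one the arrayed cells received. The labels do not tie the replicates to separate cultures. The p-values therefore measure only how far these 3 samples a group lay apart, and that distance may be technical.

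Macroautophagy wraps part of the cytoplasm in a double membrane, the autophagosome, and delivers it to the lysosome. The ULK kinase complex starts the process, a class III phosphatidylinositol 3-kinase complex marks the membrane with the lipid PI3P, lipid carriers extend it, and a ubiquitin-like conjugation system fixes proteins of the ATG8 family to it. Cargo receptors then tie the contents to ATG8 proteins. In mouse adipogenesis, loss of Atg5 or Atg7 is known to impair fat cell formation, and mitophagy, the removal of mitochondria by the same route, is part of adipocyte remodelling.

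Promoters are shown for Trp53inp2 and for the members at an unadjusted p under 0.05 (limma, below) that had a promoter window. Bnip3l and Atg16l1, also under that threshold, had no window. The windows come from RefSeq on GRCm38.p6 and run from 250 bases before to 50 bases after the annotated start, 5′ to 3′ on the gene's strand. That of Trp53inp2 is chr2:155381606-155381905 on the plus strand, that of Bnip3, a mitophagy receptor gene, is chr7:138909457-138909756 on the minus strand, and that of Atg101, a ULK complex gene, is chr15:101284051-101284350 on the plus strand. Capitals mark the E-box CACGTG, the core of the element read by TFEB and related factors, and the cyclic AMP response element TGACGTCA, the sites searched for marking.
Trp53inp2: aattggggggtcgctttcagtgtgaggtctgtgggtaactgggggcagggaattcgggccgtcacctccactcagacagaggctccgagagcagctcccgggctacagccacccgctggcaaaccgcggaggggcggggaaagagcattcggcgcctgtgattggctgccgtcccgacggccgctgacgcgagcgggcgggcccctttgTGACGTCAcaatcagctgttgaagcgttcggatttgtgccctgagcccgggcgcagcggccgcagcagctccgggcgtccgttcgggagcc
Bnip3: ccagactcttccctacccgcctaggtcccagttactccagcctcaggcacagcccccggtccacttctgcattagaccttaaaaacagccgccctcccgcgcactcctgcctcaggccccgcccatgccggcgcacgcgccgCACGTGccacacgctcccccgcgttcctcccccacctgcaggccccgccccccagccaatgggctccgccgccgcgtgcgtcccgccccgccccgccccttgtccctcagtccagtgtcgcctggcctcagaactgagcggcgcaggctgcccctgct
Atg101: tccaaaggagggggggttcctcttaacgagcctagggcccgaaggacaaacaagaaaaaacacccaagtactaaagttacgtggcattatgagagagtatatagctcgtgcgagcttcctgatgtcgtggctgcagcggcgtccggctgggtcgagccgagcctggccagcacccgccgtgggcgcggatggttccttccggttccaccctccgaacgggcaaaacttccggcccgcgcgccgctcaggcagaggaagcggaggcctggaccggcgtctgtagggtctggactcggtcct
The cyclic AMP response element of Trp53inp2 began 41 bases before the start, and the E-box of Bnip3 began 108 bases before it. Neither motif was in the Atg101 window.

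Of the 38 members, 30 had a window in the RefSeq table. The E-box was in 6 of these (20%: Atg14, Atg3, Atg5, Atg7, Bnip3 and Lamp1), against 8.09% of all 27025 genes with a window. TGACGTCA was in 2 (6.67%: Trp53inp2 and Atg5), against 2.03%. Both motifs read the same on the other strand. The longer palindromic form of the TFEB (CLEAR) element was in 0 of 30, against 0.370%. The shorter core ACGTG, bound by hypoxia-inducible factors, was in 15 of 30 (50%, either strand, counting its overlap with the E-box), against 21.8%. Member windows were richer in G and C, with a median of 60.3% against 52.7% for all windows. A match of letters is a description of the window and not a binding site.

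Trp53inp2 encodes a nuclear protein that moves to the cytoplasm when autophagy is induced, where it binds ATG8 proteins and promotes autophagosome formation. Its log2 signal read 12.42, 12.23 and 12.26 with Tsuru, and 11.40, 11.50 and 11.56 without. Every Tsuru value lay above every Medium value, with a narrow spread in each group. The means were 12.30 ± 0.10 (SD, n = 3) and 11.49 ± 0.08 (SD, n = 3), a difference of 0.82 on the log2 scale, or 1.76-fold. This difference chose the gene and supports nothing here. Leaving out each array in turn gave differences from 0.76 to 0.86. In the authors' deposited table the fold was 1.76 as well. Trp53inp1, its paralog, which was not a member, differed by 0.30 ± 0.30 (limma's moderated SE), and by 0.0083 without Medium replicate 1, its lowest array.

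**Figure D1:**
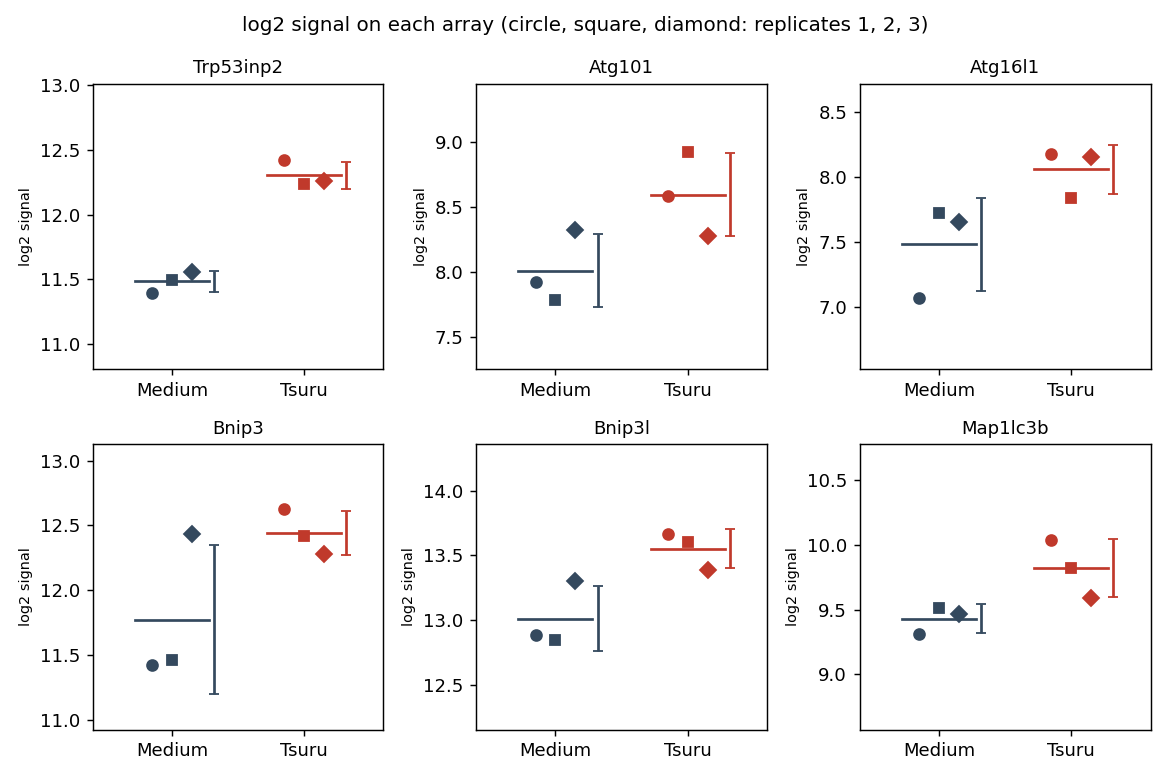
Log2 signal (y axis, the same span of 2.2 log2 units in every panel) of 6 autophagy genes on each of the 3 Medium and 3 Tsuru arrays. Points are arrays, horizontal lines are group means and bars are SD over 3 arrays. The groups do not overlap for Atg16l1, Bnip3l and Map1lc3b, nor for Trp53inp2, which was chosen for its difference. Medium replicate 3 of Bnip3, at 12.43, lies among the Tsuru values.

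The other 37 members were tested with limma across all 22206 transcript clusters. None passed Benjamini-Hochberg adjustment, and the lowest adjusted p among them was 0.37. Over all clusters limma called 0 at an adjusted p under 0.05 (0% of those tested), while 1277 (5.75%) were higher and 1195 (5.38%) lower with Tsuru at an unadjusted p under 0.05. After each array's median was subtracted that split became 2026 higher and 766 lower. At the unadjusted threshold 4 of the 37 members were higher (Bnip3l, Atg16l1, Atg101 and Bnip3) and 0 lower. The share of the 37 that were higher, 10.8%, lay near the 9.92% of clusters with a mean log2 signal of at least 6, a range that holds 35 of the 38 members. For lower clusters that share was 3.14%. An exact permutation test on 3 against 3 arrays cannot go below p = 0.10 for any single gene.

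The median log2 difference of the 37 members other than Trp53inp2 was 0.17, with 27 positive (73.0%) and 10 negative. By comparison 50.6% of all clusters and 64.5% of clusters with a mean log2 signal of at least 6 had a higher mean with Tsuru. The median was 0.01 over all genes and 0.10 over the 9459 genes with that mean or more. The groups did not overlap for 5 of the 37 other members on the higher side (13.5%, against 9.06% of all clusters and 14.8% of the brighter ones) and for 1 on the lower side (against 7.75% and 4.49%). The difference was under 2 standard errors for 30 of the 37, and the median standard error of the 38 was 0.19. In a culture, a change in the share of differentiated cells and a change in the RNA of each cell cannot be told apart.

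**Figure D2:**
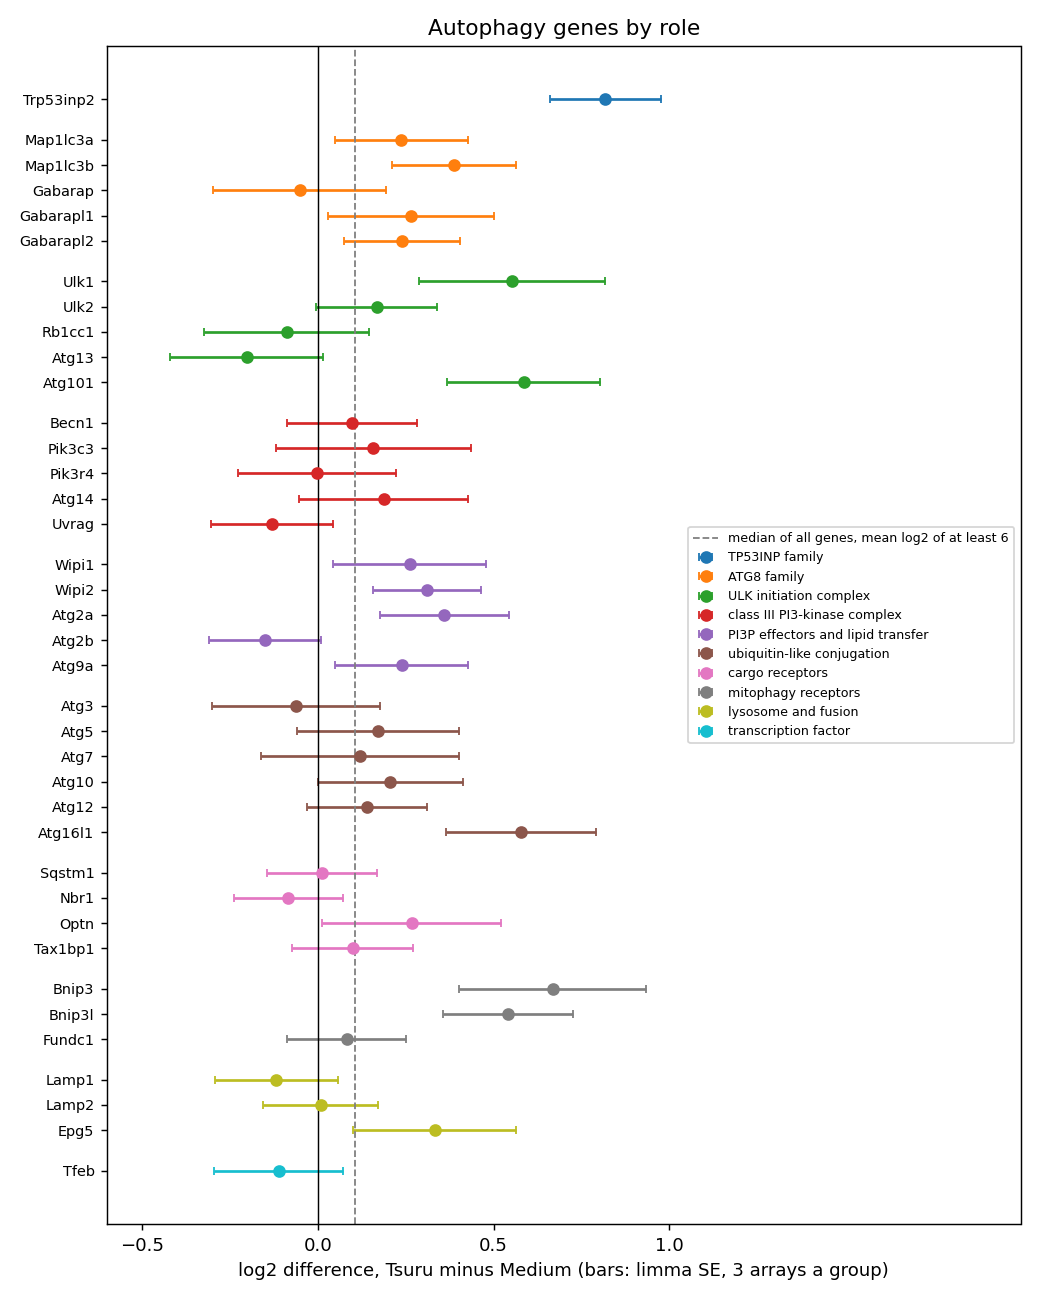
Log2 difference of each of the 38 members, Tsuru minus Medium (x axis), in order of role (y axis, colours). Bars are limma's moderated SE over 3 arrays a group, and the dashed line is the median of brighter genes, 0.10. Trp53inp2, at 0.82, was chosen for its difference and is not ranked with the others. Of the tested members Bnip3 stands highest at 0.67, followed by Atg101 at 0.59.

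The ATG8 family, the small proteins that are fixed to the autophagosome membrane, had a median difference of 0.24 over 5 members, 4 of them positive, and 0 passed the unadjusted threshold. Map1lc3b, which encodes the commonly used autophagosome marker LC3B, read 10.04, 9.82 and 9.59 with Tsuru and 9.31, 9.52 and 9.47 without. The lowest Tsuru value was 0.08 above the highest Medium value, so the groups were barely apart. Its difference was 0.39 ± 0.18 (SE; limma, adjusted p = 0.46). Map1lc3a, Gabarapl1 and Gabarapl2 differed by 0.24, 0.26 and 0.24, each with overlapping groups, and Gabarap by -0.05. Without Medium replicate 1 Gabarapl1 differed by 0.03, and Gabarap ranged from -0.23 to 0.23 as each array was left out. Gabarap read 14.63 on Medium replicate 2 and between 13.73 and 14.14 elsewhere. Map1lc3a lies near Trp53inp2 on chromosome 2, with 2 annotated genes between them in the RefSeq table.

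The ULK complex genes differed among themselves, from -0.20 to 0.59, with a median of 0.17 and 3 of 5 positive. Atg101, which encodes the subunit that stabilises ATG13, read 8.59, 8.92 and 8.28 with Tsuru and 7.92, 7.78 and 8.32 without. Medium replicate 3 lay above Tsuru replicate 3, and the difference was 0.59 ± 0.22 (SE; limma, adjusted p = 0.40). Ulk1, the kinase itself, differed by 0.55 ± 0.26, and by 0.30 without Medium replicate 1, where it read 4.91. Its signal lay under the mean of the negative control probe sets of the same array on 3 of 6 arrays, so the size is not exact. Ulk2, the related kinase, differed by 0.17, Rb1cc1, which encodes the scaffold FIP200, by -0.09, and Atg13, the adaptor subunit, by -0.20. Atg13 was below the negative controls on all 6 arrays.

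The class III PI3-kinase genes gave the least difference among the early steps: the median was 0.10 over 5 members, with 0 past the unadjusted threshold and every group overlapping. Atg14, which directs the kinase to the forming autophagosome, had the smallest p and read 6.15, 6.95 and 6.49 with Tsuru and 5.99, 6.46 and 6.58 without, a difference of 0.19 ± 0.24 (SE). In the authors' deposited table its log2 fold was -0.01. On Medium replicate 1 Atg14 lay under the mean of the negative controls, and without that array it differed by 0.0082. Pik3c3, the catalytic subunit gene, read 6.79 on Medium replicate 1 and between 7.57 and 7.91 on the other 5 arrays. Becn1, Pik3r4 and Uvrag, which encode beclin 1, the regulatory subunit and the alternative partner of the kinase on endosomes, differed by 0.10, -0.0019 and -0.13. Without Medium replicate 1 the median of the 5 was -0.20.

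Genes that act downstream of PI3P had a median of 0.26, with 4 of 5 positive and 0 past the unadjusted threshold. Wipi2, a PI3P-binding protein gene that recruits the conjugation machinery, read 11.45, 11.46 and 11.45 with Tsuru and 11.11, 11.21 and 11.11 without. The groups did not overlap and the Tsuru values lay within 0.02 of each other, but the difference of 0.31 ± 0.15 (SE) had an adjusted p of 0.48 in limma. Atg2a, a lipid transfer protein gene, also had groups that did not overlap, at 0.36 ± 0.18, and its Medium replicate 1 lay 0.01 under its lowest Tsuru value. Its paralog Atg2b was at -0.15 ± 0.16. Wipi1 differed by 0.26 and Atg9a, the gene of the lipid scramblase that seeds the membrane, by 0.24. Without Medium replicate 1 Wipi1 differed by 0.02.

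The conjugation genes had a median of 0.16, with 5 of 6 positive. At the unadjusted threshold 1 was higher (16.7%, against 5.75% of all clusters and 9.92% of brighter ones). Atg16l1, which encodes the subunit that places the conjugation enzyme on the membrane, read 8.17, 7.84 and 8.16 with Tsuru and 7.06, 7.72 and 7.65 without. The groups did not overlap, and Medium replicate 1 was the lowest by 0.59. The difference was 0.58 ± 0.21 (SE; limma, adjusted p = 0.39), and 0.37 without Medium replicate 1. Atg5 and Atg12, which form the covalent conjugate, differed by 0.17 and 0.14, the E1-like enzyme gene Atg7 by 0.12, and the E2-like enzyme genes Atg10 and Atg3 by 0.21 and -0.06. The groups overlapped for all 5 of these. Without Medium replicate 1 Atg7 differed by -0.14 and Atg3 by 0.15.

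Mitophagy receptors had the highest median of the groups with more than 1 gene, 0.54 over 3 members. At the unadjusted threshold 2 were higher (66.7%, against 5.75% of all clusters and 9.92% of brighter ones), a share that rests on 3 genes. Bnip3l, also called Nix, encodes an outer mitochondrial membrane receptor that binds ATG8 proteins. It read 13.67, 13.60 and 13.39 with Tsuru and 12.89, 12.84 and 13.30 without. The groups did not overlap, though Medium replicate 3 came within 0.09 of the lowest Tsuru value. The difference was 0.54 ± 0.19 (SE; limma, adjusted p = 0.37), a fold of 1.46. Bnip3, its relative and a known hypoxia-induced gene, read 12.62, 12.42 and 12.28 with Tsuru and 11.43, 11.46 and 12.43 without. Its groups overlapped through Medium replicate 3, and the difference was 0.67 ± 0.27 (SE; limma, adjusted p = 0.41). Without Medium replicate 1 Bnip3 differed by 0.49 and Bnip3l by 0.48. In that fit 1 of the 3 receptors passed the unadjusted threshold on the higher side, against 4.35% of all clusters. Without Medium replicate 3 Bnip3 differed by 0.999 (limma, adjusted p = 0.064, with a range of 0.064 to 0.69 over the alternatives) and Bnip3l by 0.69 (0.13, with a range of 0.13 to 0.67). Fundc1, the remaining receptor of the outer membrane, differed by 0.08 ± 0.17.

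The general cargo receptors had a median of 0.06, with 0 of 4 past the unadjusted threshold. Sqstm1, which encodes p62 and is itself degraded by autophagy as a protein, read between 14.03 and 14.26 on the 6 arrays and differed by 0.01 ± 0.16 (SE). Nbr1, a relative of p62, was the member with groups that did not overlap on the lower side, at 12.17, 12.23 and 12.22 with Tsuru and 12.38, 12.26 and 12.24 without. The gap between the groups was 0.003 and the difference -0.08 ± 0.15. Tax1bp1, a ubiquitin-binding receptor gene, differed by 0.10. Optn, the optineurin gene, had the smallest p of the 4 and read 4.56, 4.58 and 5.24 with Tsuru and 4.76, 4.06 and 4.75 without, below the negative controls on all 6 arrays, with a difference of 0.27 ± 0.25.

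At the lysosome end, Lamp1 and Lamp2, the abundant membrane glycoproteins of lysosomes, differed by -0.12 ± 0.18 and 0.01 ± 0.16 (SE). Epg5, which tethers autophagosomes to late endosomes and lysosomes, read 7.76, 7.99 and 8.04 with Tsuru and 7.07, 7.77 and 7.94 without. The groups overlapped, with Medium replicate 1 lowest, and the difference of 0.33 ± 0.23 was 0.07 without that array. Tfeb, the transcription factor that activates lysosome and autophagy genes, read 6.62, 6.57 and 6.42 with Tsuru and 6.95, 6.45 and 6.56 without. The groups overlapped, and the difference was -0.11 ± 0.18 (limma, adjusted p = 0.85).

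Medium replicate 1 stood apart, and several member differences were smaller without it. It held the lowest of the 6 values for 20 of the 38 members (52.6%), compared with 24.1% of all genes and 37.7% of genes with a mean log2 signal of at least 6. No other array was lowest for more than 8 members. The members' median deviation from their own 6-array means was -0.24 on Medium replicate 1, and between -0.03 and 0.08 on the other 5. Without that array the median difference of the 37 members other than Trp53inp2 was 0.04, and that of brighter genes was 0.06. Then 2 of the 37 tested members, Bnip3l and Atg2a, passed the unadjusted threshold on the higher side (5.41%, against 4.35% of all clusters in that fit), and 0 on the lower side (against 4.62%). The share of brighter clusters without Medium replicate 1 was not computed. Trp53inp2 differed by 0.77 without that array.

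**Figure D3:**
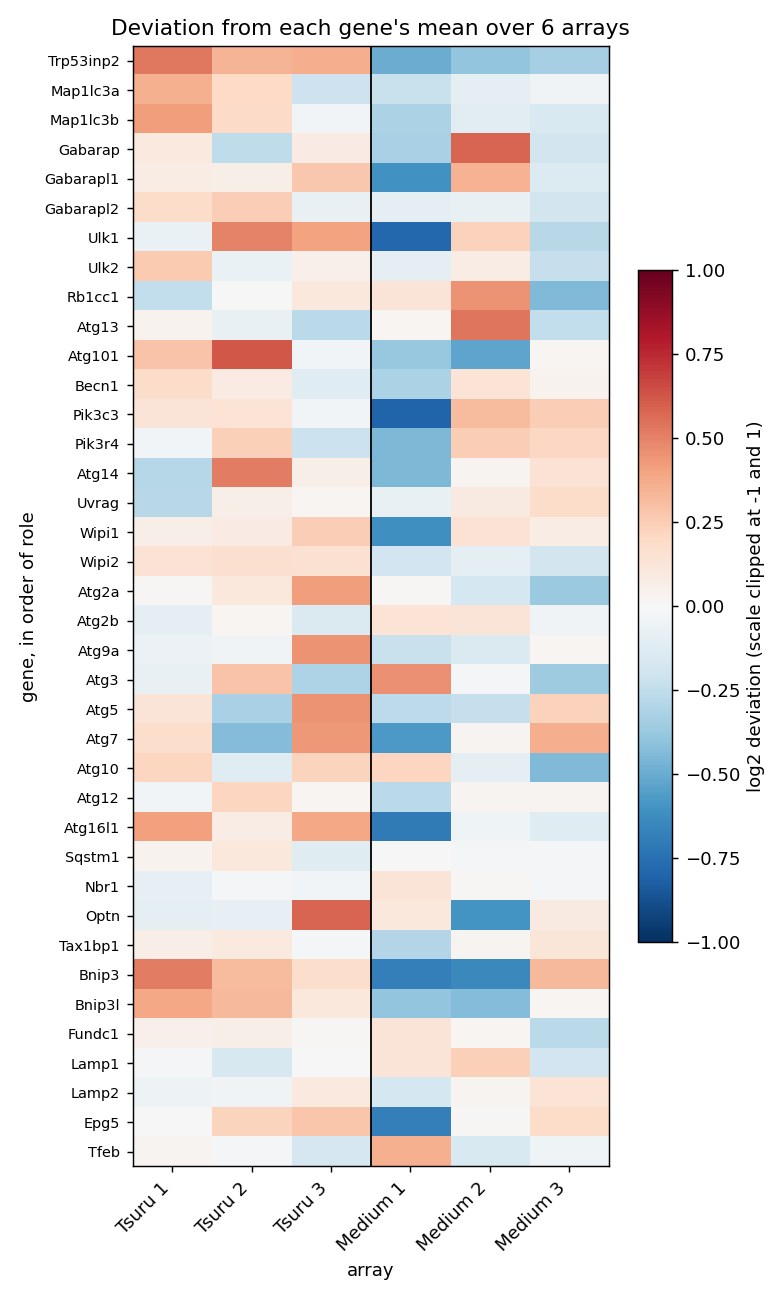
Deviation of each member's log2 signal from its mean over the 6 arrays (colour, clipped at -1 and 1), with genes in rows in order of role and arrays in columns. The Medium 1 column is blue for most genes, with 20 of 38 at their lowest there. Trp53inp2, which was chosen for its difference, is split by group.

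The same array carried high interferon-response signals. The 8 interferon genes examined had a median deviation of 2.81 on Medium replicate 1 and between -1.41 and 0.19 elsewhere, and all 8 had a lower mean with Tsuru. Without that array 4 were lower and 4 higher, with a median difference of -0.0045. Their summed signal, as log2, ran from 9.21 to 12.07 on the Tsuru arrays and from 9.98 to 15.45 on the Medium arrays, with 1 gene below the negative controls throughout. Their part in the members' differences was not tested. Adipocyte markers were bright in both groups, 1 of 8 being below the negative controls throughout, with log2 summed signals of 19.27 to 19.59 and 19.02 to 19.32. Of the 8, 6 had a higher mean with Tsuru (75%, against 64.5% of clusters with a mean log2 signal of at least 6). Plin1, the lipid droplet coat gene perilipin 1, differed by 0.90 ± 0.19 and Cfd, the adipsin gene, by 1.09 ± 0.26 (SE; limma, adjusted p = 0.31 and 0.34), both with groups that did not overlap and with differences above that of Trp53inp2. The adipocyte markers other than Plin1 and Cfd ran from -0.26 (Lep) to 0.47 (Adipoq), and the groups overlapped for 5 of the 8. The part of the adipocyte markers in the members' differences was not tested. Preadipocyte or fibroblast markers, 4 of 5 measured, also had high log2 sums, at 18.08 to 18.27 and 17.87 to 18.32, but 1 (Cd34) was below the negative controls throughout. Of 5 macrophage markers, 2 had a higher and 3 a lower mean with Tsuru, at log2 sums of 7.61 to 7.94 and 7.56 to 8.61, and 2 were below the negative controls throughout. Endothelial markers were below the negative controls in 4 of 4 cases and skeletal muscle markers in 3 of 4. Array medians ran from 5.43 to 5.59.

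**Figure D4:**
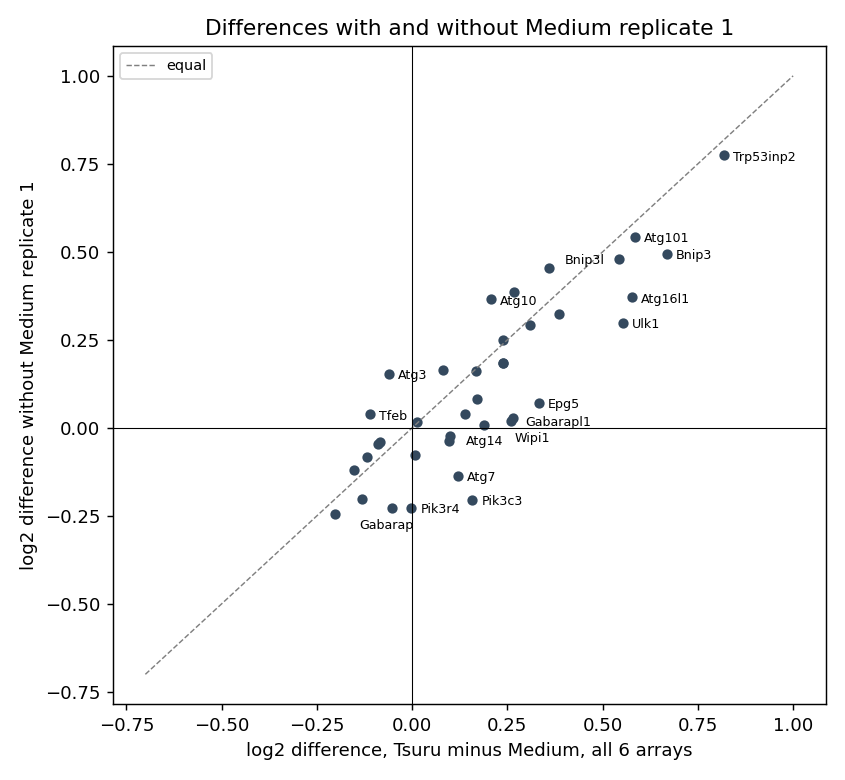
Log2 difference of each of the 38 members with all 6 arrays (x axis) and without Medium replicate 1 (y axis). Points are genes and the dashed line marks equal values. Ulk1, Atg16l1, Epg5, Wipi1 and Pik3c3 lie under the line, and Atg3, Atg10 and Tfeb lie above it. Trp53inp2, at 0.77, was chosen for its difference and is no standard for the others.

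Autophagy genes outside the set were taken from a list by function, drawn up with earlier results of these data known. Of 42 listed, 40 were measured, 2 of them through older symbols. Their median difference was 0.17, with 27 positive, 6 higher (15%, against 5.75% of all clusters and 9.92% of brighter ones) and 1 lower (against 5.38% and 3.14%) at the unadjusted threshold, and 0 at an adjusted p under 0.05 in limma. The 6 were Vps39, a subunit of the HOPS complex that tethers membranes to lysosomes, at 0.66 ± 0.17 (SE), Wdr45, a PI3P-binding relative of the WIPI proteins, at 0.64 ± 0.18, Wdfy3, a scaffold for protein aggregates, at 0.52 ± 0.17, Ambra1, a regulator of beclin 1 and ULK1, at 0.49 ± 0.19, the SNARE gene Snap29 at 0.46 ± 0.19 and the transcription factor gene Foxo3 at 0.47 ± 0.20. Their adjusted p ran from 0.34 for Vps39 to 0.43 for Foxo3. Atg16l2 was the lower one, at -0.46 ± 0.20 (limma, adjusted p = 0.44), while its paralog Atg16l1 stood at 0.58. Whether the paralogs differ in response was not tested. Without Medium replicate 1 the median was 0.03, with 4 higher (10%, against 4.35% of all clusters) and 0 lower (against 4.62%) at the unadjusted threshold. The share of brighter clusters in that fit was not computed.

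Of the 37 members other than Trp53inp2, 4 (10.8%) passed the methods' threshold in the authors' deposited table (p under 0.05 before adjustment, linear fold over 1.1), all higher: Bnip3 (fold 1.91), Bnip3l (1.47), Atg16l1 (1.42) and Map1lc3b (1.33). Over all clusters, the shares past that threshold in the authors' deposited table were 6% higher and 5.89% lower, and 10.2% and 3.3% among clusters with a mean log2 signal of at least 6. Atg101 had a fold of 1.33 there and did not pass. The sign of the difference in the authors' deposited table matched that computed here for 27 of 38 members. The median log2 fold of the 37 members was 0.06 in the authors' deposited table, with 22 positive, against 0.17 and 27 here. For 15 of 38 members at least 1 group average in the authors' deposited table lay outside the range of that group's 3 deposited array values, beyond rounding. For Atg16l1 the averages were 8.52 and 8.02, against array values that reached 8.17 and 7.72. The source of the gap was not tested.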

How the data were processed

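RNA was hybridised to 6 Clariom S mouse arrays, 3 from Tsuru-treated and 3 from untreated 3T3-L1 cells, grouped by sample title. The deposited log2 signals were computed by the authors, using SST-RMA in Transcriptome Analysis Console 4.0.2, per the series design text. The authors' deposited table adds group averages (log2), a signed linear fold change (a lower value is written as a negative fold), and p-values of an ANOVA moderated by empirical Bayes, per the file headers and the series design text. Cluster coordinates were not used, their build being not given in the sources used here.

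After 6640 control sets were left out, 22206 transcript clusters went into a linear model per cluster (R 4.3.3, limma 3.58.1, with eBayes, no trend and no filter), Tsuru minus Medium, with Benjamini-Hochberg adjustment over all clusters. Errors of differences are moderated standard errors. Clusters with several symbols named no gene. The fit was tested on simulated data. The members and lists were chosen with earlier results of these data known. Values on every array are given for Trp53inp2, members at an unadjusted p under 0.05 and the smallest p of each role group. Of the other autophagy genes, those at an unadjusted p under 0.05 are named. Alternatives were quantile normalization, median subtraction, a variance trend, array weights, ANOVA without empirical Bayes, a filter at a mean log2 signal of 6, a replicate block, the mean of a gene's clusters, each array left out and the authors' deposited table. Precision is limited by the 6 arrays.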

Additional observations from a re-analysis of the deposited data

How the results depend on the processing

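Under 15 alternative settings, 72 of 82 values for the main counts and medians stayed close to those reported (counts within 1.5 times, medians within 1 SD of the array medians). Some of these values could not move. The replicate block leaves each difference unchanged in this balanced design, and the mean of a gene's clusters changes nothing for genes with 1 cluster. Counts that stayed at 0 are included. The members' median of 0.070 in the authors' deposited table was taken as close to 0.17. The number of the 37 tested members at an unadjusted p under 0.05 on the higher side was 4 as reported. It was 2 by ANOVA without empirical Bayes (5.41%, against 4.86% of all clusters in that fit) and 8 with array medians subtracted (21.6%, against 9.12%). Median subtraction moved the median difference over all clusters from 0.004 to 0.084, and the share of brighter clusters in that fit was not computed. When 1 array was left out the number of members ran from 1 to 4: 1 without Tsuru replicate 1 (2.70%, against 3.59%), and 2 without Tsuru replicate 2 (5.41%, against 4.09%) or Medium replicate 1. The members passing were not the same each time. Without Tsuru replicate 1 it was Ulk1. Without Medium replicate 2 they were Gabarapl1, Ulk1 and Atg16l1 (8.11%, against 4.81%). Bnip3l passed in neither of these fits, and no tested member passed in every fit with 1 array left out. On the lower side the number was 0 throughout. The median of all 38 members ran from 0.056 (without Medium replicate 1) to 0.23 (without Medium replicate 3) with 1 array left out, and was 0.25 with array medians subtracted. Over the 37 members other than Trp53inp2 the median was 0.040 without Medium replicate 1 and 0.21 without Medium replicate 3. That of the other autophagy genes ran from 0.033 to 0.21 with 1 array left out, and was 0.25 with array medians subtracted. Clusters at an unadjusted p under 0.05 fell from 2472 to 1309 with the filter, which tests fewer clusters, and ran from 1659 to 3616 with 1 array left out. Clusters at an adjusted p under 0.05 ran from 0 to 25, the latter without Medium replicate 3. Of 11 followed members, the sign turned in the authors' deposited table for Atg14 (-0.014), Epg5 (-0.043) and Tfeb (0.043). With 1 array left out Atg14 ran from -0.022 (without Tsuru replicate 2) to 0.38 and Tfeb from -0.21 to 0.039 (without Medium replicate 1). The causes were not tested. With the replicate number as a block, 5 of the 37 members passed on the higher side (13.5%, against 6.03% of all clusters in that fit), Ulk1 in addition. Deviations of same-numbered arrays correlated at 0.002, 0.006 and 0.19 across clusters. Those of differently numbered arrays ran from -0.13 to 0.12. With so few arrays these values cannot show whether the numbers pair the samples, and the labels do not say. No adjusted p of a followed and tested member was under 0.05 in any setting. The lowest was 0.064, for Bnip3. Dim signals limit Atg13, Optn and Ulk1, and Atg14 on Medium replicate 1.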
